A study of Homo sapiens with 2 samples.

Results

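The core genes of insulin signalling were followed from the receptor to the FOXO1 transcription factor in RNA recovered by immunoprecipitation from 293T cells. The genes were the receptors INSR and IGF1R, the receptor substrates IRS1, IRS2 and IRS4, the regulatory phosphoinositide 3-kinase subunit PIK3R1, the kinase AKT1 and FOXO1. They were taken from a list of 9 by their symbol in the platform annotation, and only probe sets with exactly 1 symbol were used. PIK3CA, the remaining gene of the list, was not analysed here. The other 8 had 24 probe sets, of 19775 genes named on the array. A probe set is the group of short oligonucleotides on the array that together report 1 transcript or group of transcripts.

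The study hybridised 2 Affymetrix U133 Plus arrays, 1 per group, so there is no replicate and no p-value, and each difference compares these 2 arrays only. Both came from 293T, a transformed line of human embryonic kidney origin that expresses SV40 large T antigen, and both oligonucleotides were transfected at 30 nmol/l. The miR-941 array held RNA precipitated with an Ago2 antibody from cells given synthetic miR-941, and the control array held the precipitate from cells given a scrambled oligo. The control sample is labelled inconsistently, as Ago2-IP in the title but with nonimmune IgG beads given as the antibody. If the beads were used, the effects of oligonucleotide and antibody cannot be told apart. No input RNA was analysed here, so the amount of an mRNA in the cells and its recovery in the precipitate cannot be told apart either.

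Insulin and the insulin-like growth factors bind receptor tyrosine kinases that phosphorylate the IRS proteins. Phosphorylated IRS proteins dock the PIK3R1 subunit of phosphoinositide 3-kinase, whose lipid product brings AKT to the membrane, and AKT then keeps FOXO1 out of the nucleus. IRS1 and IRS2 are found in most tissues, whereas IRS4 has a narrow distribution and was first described in the parent line of 293T. The Argonaute protein Ago2 holds microRNAs on their target mRNAs, and the study asked which mRNAs are recovered with it after miR-941 is added, with the insulin pathway among those linked to miR-941.

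The microRNA is shown because it is the agent that distinguishes the groups. Capitals mark its seed, bases 2 to 8 from the 5′ end, which pairs with target mRNAs. The mature sequence is from RefSeq (GRCh38.p14), where 5 gene copies on chromosome 20 give the same letters. The first copy lies at chr20:63919495-63919517 on the plus strand.
hsa-miR-941: cACCCGGCugugugcacaugugc
The seed occurred in 1 of the 2370 mature microRNA names in that table, miR-941 itself. The members were not compared by matches to the seed.

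Values are the authors' deposited expression values, taken here as log2 since their log base is not given in the sources used here, and each difference is the miR-941 value minus the control value. A probe set was called detected if its mean over both arrays exceeded 0.92, close to the median of both arrays. All 8 genes had a detected probe set, beside 13144 of the 19775 genes on the array. Of the 24 probe sets of the 8 genes 18 were detected, beside 23302 of the 41091 with 1 symbol on the array. On the brightest probe set of each of the 8 genes, 6 genes were lower on the miR-941 array, 1 was higher and 1 was equal. Their median log2 difference was -0.22. Over all 13144 detected genes 42.4% were lower and 46.3% higher, with a median of 0.00. With the array medians subtracted, 7 of the 8 were lower and 1 was higher, against 58.7% lower over all detected genes. The median over the detected probe sets of each gene gave 5 lower, 2 higher and 1 equal. Their median was then -0.07, beside 43.1% lower over all detected genes.

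None of the 8 genes reached a 2-fold difference, a size seen in 0.221% of detected genes on the higher side and 0.289% on the lower side. IRS2 alone reached 1.5-fold, on the lower side, where 2.87% of detected genes lay (2.92% on the higher side). Among genes above the 75th percentile of level, where IRS2 lies, 1.82% were 1.5-fold lower and 1.13% higher. The spread between probe sets of one gene was used as a technical measure. Those probe sets share 1 precipitate and 1 hybridisation per array, so it leaves out variation between precipitates and between arrays. The differences of detected probe sets had a within-gene SD of 0.31, pooled over 6102 genes, and 0.27 over the 7 members with more than 1. IRS2, IRS1 and IRS4 differed by more than 0.31 on their brightest probe set, IRS1 and IRS4 only slightly, and the other 5 genes did not. The within-gene spread depended on the level: it was 0.36 up to a level of 2, 0.38 from 2 to 4 and 0.22 above 4. IRS2 (-0.79), IRS4 (-0.33) and IGF1R (-0.27), all at a level above 4, exceeded the last of these. IRS1 (-0.37 at a level up to 2) exceeded the first only slightly. Passing these spreads was not rare, since the SD of the differences over all detected genes was 0.30. Of all detected genes, 0.83% were at least as low as IRS2, 9.61% as IRS1, 11.5% as IRS4 and 14.4% as IGF1R.

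**Figure D1:**
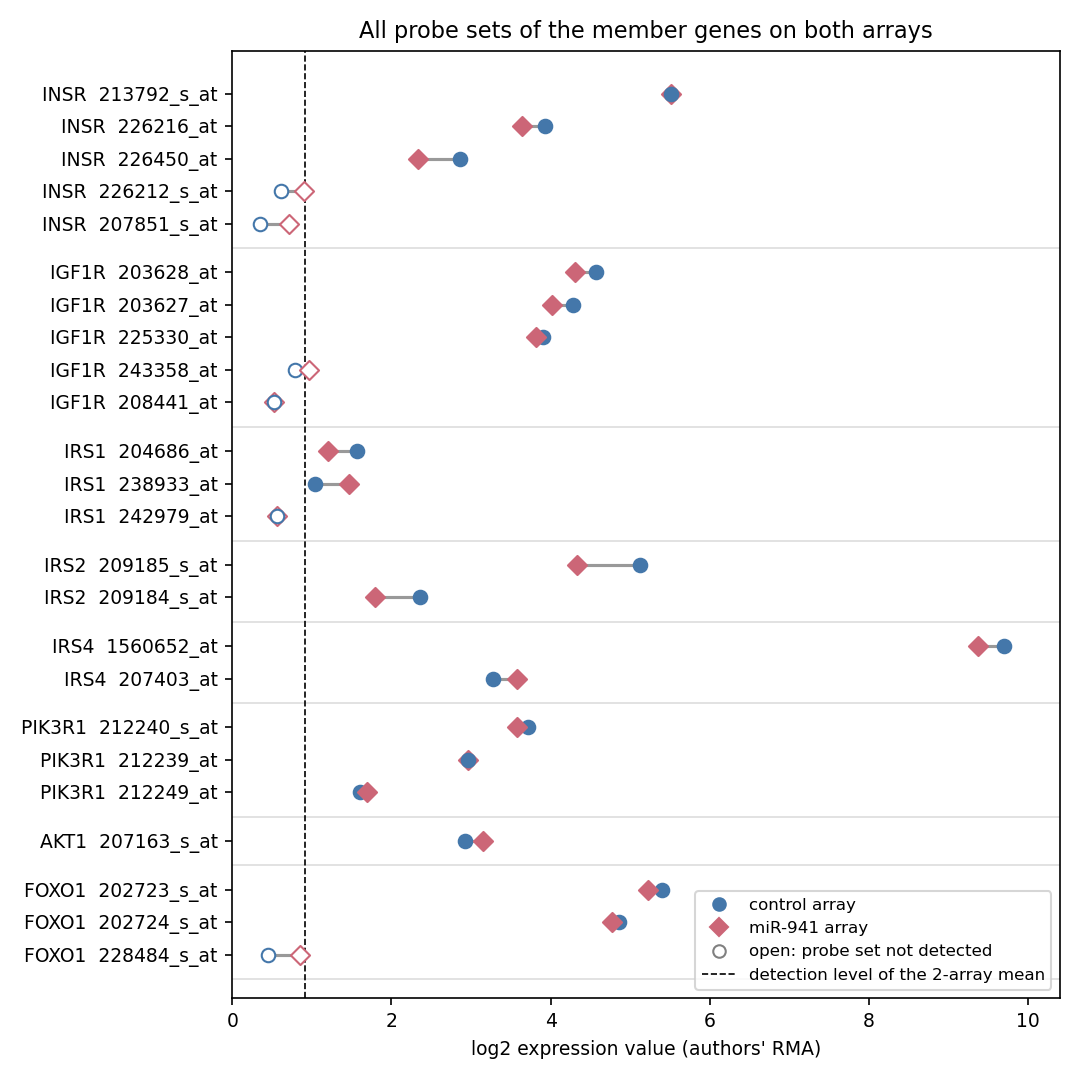
Log2 expression values of all 24 probe sets of the 8 genes on the control array (circles) and the miR-941 array (diamonds), joined by a line. Open symbols are the 6 probe sets that were not detected, and the dashed line is the detection level of 0.92. Both IRS2 probe sets moved to the left, while the 2 detected IRS1 probe sets and the 2 IRS4 probe sets moved in opposite directions.

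The insulin receptor gene INSR was equal on its brightest probe set and lower on the other 2 detected ones. Probe set 213792_s_at read 5.51 on both arrays. Probe set 226216_at read 3.93 on the control and 3.65 on the miR-941 array, differing by -0.28. Probe set 226450_at read 2.86 and 2.33, a difference of -0.53 whose size was shared by 172 probe sets of the array. The dimmer the detected INSR probe set, the lower was its difference, and the median over the 3 was -0.28 ± 0.26 (SD over probe sets, which share 1 hybridisation per array). The equal reading does not show an equal amount of mRNA: 21.6% of the 54675 probe sets held the same value on both arrays, and among detected ones above a level of 4 the share was 5.76%. The remaining INSR probe sets, 226212_s_at (0.62 and 0.90) and 207851_s_at (0.34 and 0.71), were not detected.

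IGF1R, which encodes the receptor for insulin-like growth factors, was lower on all 3 detected probe sets. Probe set 203628_at read 4.57 on the control and 4.30 on the miR-941 array, differing by -0.27. Probe set 203627_at read 4.28 and 4.02 (-0.26), and 225330_at read 3.91 and 3.82 (-0.09). The 3 values lay close together, with a median of -0.26 ± 0.10 (SD over 3 probe sets). The size of the 203627_at difference was a repeated value, shared by 521 probe sets of the array. Among the 1604 genes with exactly 3 detected probe sets, 13.2% had all of them lower and 10.8% all higher. Of all detected genes, 14.4% were at least as low as the brightest IGF1R probe set. The other IGF1R probe sets were not detected, 243358_at at 0.79 and 0.96 and 208441_at at 0.53 on both arrays.

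IRS2, the substrate best known for its role in liver and pancreatic islets, had the lowest difference of the 8 genes. Its brighter probe set, 209185_s_at, read 5.12 on the control and 4.33 on the miR-941 array. The difference of -0.79 is a signal 0.58 times that of the control array. Its dimmer probe set, 209184_s_at, read 2.36 and 1.80, a difference of -0.56, so that both were lower, with a median of -0.67 ± 0.16 (SD over 2 probe sets). Of all detected genes, 0.83% were at least as low as IRS2. Among the 3013 detected probe sets within 0.5 of its level the share was 0.60%, and for the dimmer probe set, among 3811, it was 7.22%. Of the 3525 genes with exactly 2 detected probe sets, 21.7% had both lower, and 18 (0.51%) had both at -0.56 or below. That limit is the smaller IRS2 difference itself, and IRS2 is described here as the lowest of the 8 genes. The shares therefore give its position and are not a test. Both IRS2 probe sets carry the suffix _s_at, which marks probe sets shared by several transcripts, and no other probe set of the gene was available to set beside them.

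On the same arrays the control probe set for the 5′ end of the ACTB mRNA differed by -0.66 and that for its 3′ end by -0.04. For GAPDH the 5′ and 3′ values were -0.19 and 0.05. The part of this difference between the ends of mRNAs in the IRS2 value, or in those of the other members, was not tested.

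IRS1, the substrate that carries much of the insulin signal in muscle and fat, was close to the detection level. Its brightest probe set, 204686_at, read 1.57 on the control and 1.20 on the miR-941 array (-0.37). Probe set 238933_at read 1.04 and 1.47 (0.44), and 242979_at read 0.56 on both and was not detected. The 2 detected probe sets thus differed in opposite directions, with a median of 0.03 ± 0.57 (SD over 2 probe sets), and no direction is given for IRS1. Differences at this level are also coarse. A difference of 0.37 in either direction, equal to 6 decimals, was shared by 1261 probe sets of the array, and the size of 0.44 was shared by 966.

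IRS4 had the brightest probe set of the 8 genes. Probe set 1560652_at read 9.70 on the control and 9.38 on the miR-941 array, differing by -0.33. Probe set 207403_at read 3.27 and 3.58, a difference of 0.31. The gene therefore had no common direction, and the median over the 2 was -0.01 ± 0.45 (SD). Of the 229 detected probe sets within 0.5 of the brighter one's level, 5.68% were at least as low. Opposite directions were frequent: 33.6% of genes with exactly 2 detected probe sets had 1 higher and 1 lower.

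The signals of the 3 IRS genes were in the order IRS4, IRS2, IRS1 on both arrays. On the control array the brightest IRS4 probe set stood at the 99.4th percentile of all probe sets other than controls, IRS2 at the 85.4th and IRS1 at the 62.2th. On the miR-941 array they stood at the 99.2th, 80.7th and 56.1th. IRS4 exceeded IRS2 by 4.59 (log2 signal) on the control array and by 5.05 on the miR-941 array. The gap between IRS4 and IRS2 was wider by 0.46 on the miR-941 array with these probe sets, and by 0.87 with the second probe set of each gene (0.92 and 1.78). IRS2 exceeded IRS1 by 3.55 on the control array, and by 3.13 or 2.86 on the miR-941 array, depending on which of the 2 detected IRS1 probe sets is used there.

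Probe sets differ in how strongly they bind, so this is an order of array signals and not of mRNA amounts. The 2 IRS4 probe sets were themselves 6.43 apart on the control array and 5.80 apart on the miR-941 array, farther than the brightest IRS4 probe set was from the brightest IRS2 probe set on either array. Among the 6102 genes with more than 1 detected probe set, the 2 brightest were a median of 1.19 apart on the control array, and in 1.11% they were at least as far apart as those of IRS4. The order of the probe sets second by mean level was the same on both arrays: IRS4 (3.27 and 3.58), IRS2 (2.36 and 1.80), IRS1 (1.04 and 1.47). With the mean over all probe sets of each gene the order was also IRS4, IRS2, IRS1, but the IRS4 mean includes its bright probe set. The dimmer IRS4 probe set (3.27 and 3.58) read below the brighter IRS2 probe set (5.12 and 4.33) on both arrays.

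**Figure D2:**
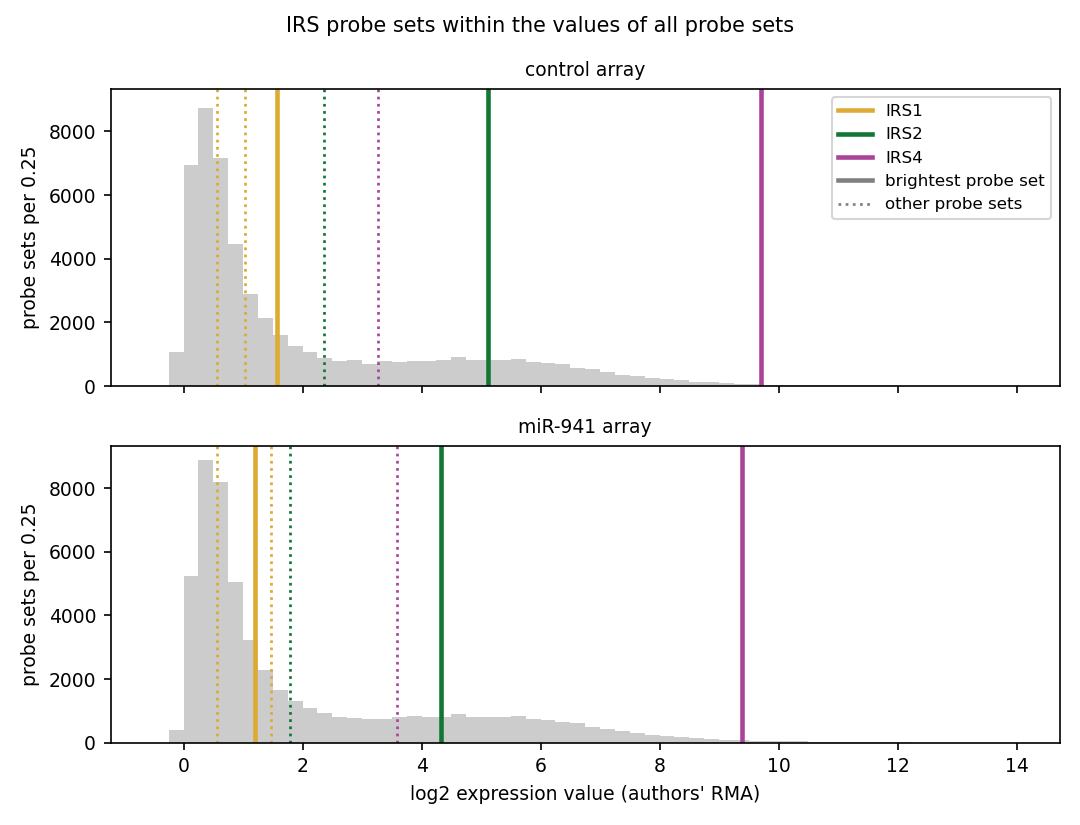
Histograms of the log2 values of all probe sets other than controls on each array (grey, in bins of 0.25), with the probe sets of IRS1, IRS2 and IRS4 as vertical lines. Thick lines are the probe set of each gene with the highest mean over both arrays. IRS4 lies in the far right tail at 9.70 and 9.38, IRS2 in the upper part at 5.12 and 4.33, and IRS1 at the edge of the dim peak at 1.57 and 1.20.

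PIK3R1, the regulatory subunit that docks on IRS proteins and holds the catalytic subunit, differed little on its 3 detected probe sets. Probe set 212240_s_at read 3.71 on the control and 3.58 on the miR-941 array (-0.13). Probe set 212239_at read 2.97 on both arrays, and 212249_at read 1.60 and 1.69 (0.09). One probe set was lower, 1 equal and 1 higher, with a median of 0.00 ± 0.11 (SD), within the pooled within-gene SD of 0.31.

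AKT1, the kinase downstream of phosphoinositide 3-kinase, was the only gene of the 8 whose brightest probe set was higher on the miR-941 array in the deposited values. Its single probe set, 207163_s_at, read 2.92 on the control and 3.15 on the miR-941 array, differing by 0.22. Of all detected genes, 22.4% were at least as high, and the difference is smaller than the pooled within-gene SD.

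FOXO1, the transcription factor that AKT restrains and that drives genes of glucose production in liver, was slightly lower on both detected probe sets. Probe set 202723_s_at read 5.40 on the control and 5.22 on the miR-941 array (-0.17). Probe set 202724_s_at read 4.86 and 4.77 (-0.09). The median was -0.13 ± 0.06 (SD over 2 probe sets), and 26.5% of detected genes were at least as low as the brighter one. Probe set 228484_s_at (0.45 and 0.86) was not detected.

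**Figure D3:**
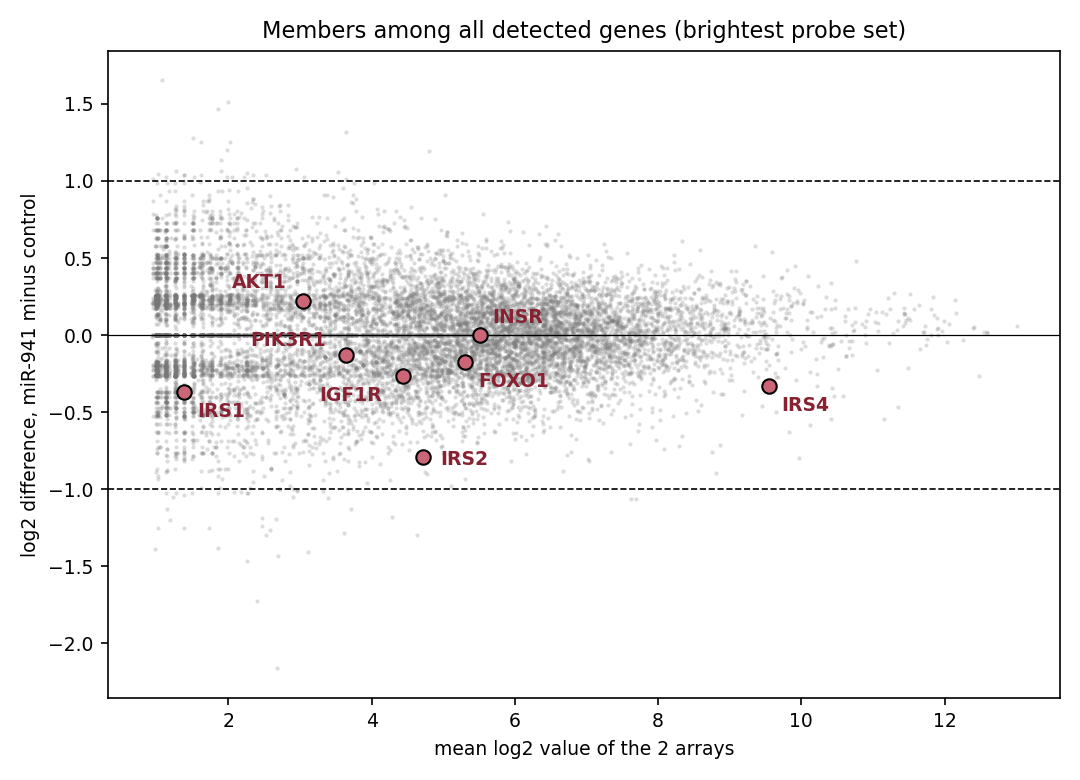
Log2 difference (miR-941 minus control) against the mean log2 value of the 2 arrays for the brightest probe set of 13144 detected genes (grey) and the 8 members (labelled). Dashed lines mark 2-fold in either direction. IRS2 at -0.79 lies at the lower edge of the genes of its level, and the bands at the left are repeated difference values of dim probe sets.

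The 7 genes with more than 1 detected probe set fell into those with one direction and those without. IGF1R, IRS2 and FOXO1 were lower on every detected probe set, and no gene was higher on every one. INSR had 2 lower and 1 equal, while IRS1, IRS4 and PIK3R1 had probe sets on both sides of 0. Over the 18 detected probe sets 12 were lower, 4 higher and 2 equal, with a median of -0.15, where 43.4% of all 23302 detected probe sets with 1 symbol were lower. The 6 that were not detected read between 0.34 and 0.96. Of these 4 were higher, 2 equal and none lower. Over all 17789 undetected probe sets with 1 symbol, 44.6% were higher, 29.6% equal and 25.8% lower.

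Other genes of the pathway were taken from a list ordered by role. Of its 95 genes 88 had a probe set with 1 symbol and 81 were detected, members included, beside 13144 of the 19775 genes on the array. On the miR-941 array 49 of the 81 were lower (60.5%), 29 higher and 3 equal, with a median of -0.08, beside 42.4% lower over all detected genes. Without the members 43 of 73 were lower (58.9%), 28 were higher and the median was -0.06. With array medians subtracted 54 of the whole list were lower and 27 higher (66.7% lower), beside 58.7% lower over all detected genes. Above the 75th percentile of level 60.0% of 65 genes of the list were lower, beside 46.2% of all genes at that level. The median over probe sets of each gene gave 42 lower, 31 higher and 8 equal over the whole list (51.9% lower), with a list median of -0.01, beside 43.1% lower over all detected genes.

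Of the ligands, IGF1 was detected, at 1.31 on the control and 1.71 on the miR-941 array, with 1 of its 2 probe sets lower. INS was below detection, at 0.38 and 0.57. Among the receptors, IGF2R, which takes up insulin-like growth factor without signalling like the others, had -0.54 on its brightest probe set (5.63 and 5.09), but its other detected probe set was higher and the median was -0.01. INSRR, the receptor most related to INSR, read 0.56 on both arrays and was not detected.

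Among 15 detected adaptors, 10 were lower and 5 higher, with a median of -0.15. With the mean over probe sets 7 were lower and 8 higher (median 0.03), so the group has no settled direction. GRB14, an inhibitor that binds the active insulin receptor, was the highest at 0.59 on its 1 probe set (3.56 and 4.15). It was the only pathway gene at 1.5-fold or more on the higher side, where 2.92% of all detected genes lay. IRS2 was the lowest. Of 8 detected genes of the lipid kinases with PDPK1, 5 were lower and 3 higher, with a median of -0.15. PIK3C3, the class III enzyme of autophagy, had 0.40 (4.68 and 5.08). PIK3CD, a catalytic subunit best known in white blood cells, had -0.44 at a dim level (1.48 and 1.04). The catalytic subunit PIK3CB had 0.08 (6.19 and 6.27). PIK3R3, a regulatory subunit related to PIK3R1, had 0.18 (5.45 and 5.63) and was higher on both probe sets, with a median of 0.47.

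Of 9 detected phosphatases, which act on lipids or proteins, 6 were lower and 3 higher, with a median of -0.15. PHLPP2, which removes phosphate from AKT, was the lowest at -0.44 (5.83 and 5.39). INPP4A, a lipid phosphatase, was the highest at 0.21, but 4 of its 6 probe sets were lower and the median was -0.22. The group of AKT, GSK3, mTOR complex, TSC and substrate genes had 11 lower and 6 higher of 17, with a median of -0.07. RPTOR, the scaffold of mTOR complex 1, read 3.26 and 2.07 on its 1 probe set. Its difference of -1.19 was the only one of the 81 past 2-fold, beside 0.289% of all detected genes on the lower side. At levels of 2 to 4, where RPTOR lies, the SD of all differences was 0.39, against 0.26 above 4. BAD, an apoptosis protein that AKT phosphorylates, was the highest at 0.23, higher on both probe sets. AKT2, the paralogue most tied to insulin in muscle and fat, had 0.14 with 2 of its 4 probe sets lower (median -0.06).

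Of 12 detected FOXO factors and partners, 9 were lower, 2 higher and 1 equal, with a median of -0.11. With the median over probe sets 6 were lower, 4 higher and 2 equal. FOXO3 had -0.19 (7.67 and 7.48), with 3 of its 4 probe sets lower and 1 equal. FOXO4 had -0.21 at a dim level (1.73 and 1.52), and FOXO6 was the highest at 0.35 (2.79 and 3.13). TRIB2, a pseudokinase that restrains FOXO, was the lowest at -0.57, with its other probe set equal. FOXO target genes were split, with 9 higher, 6 lower and 1 equal of 16 and a median of 0.06, and 8 on each side with array medians subtracted. SOD2, the mitochondrial superoxide dismutase, was the highest at 0.47 (3.98 and 4.44), and PDK4, a kinase that shuts down pyruvate dehydrogenase, the lowest at -0.49 (1.76 and 1.27). The liver targets IGFBP1, PCK1 and G6PC1 were not detected.

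**Figure D4:**
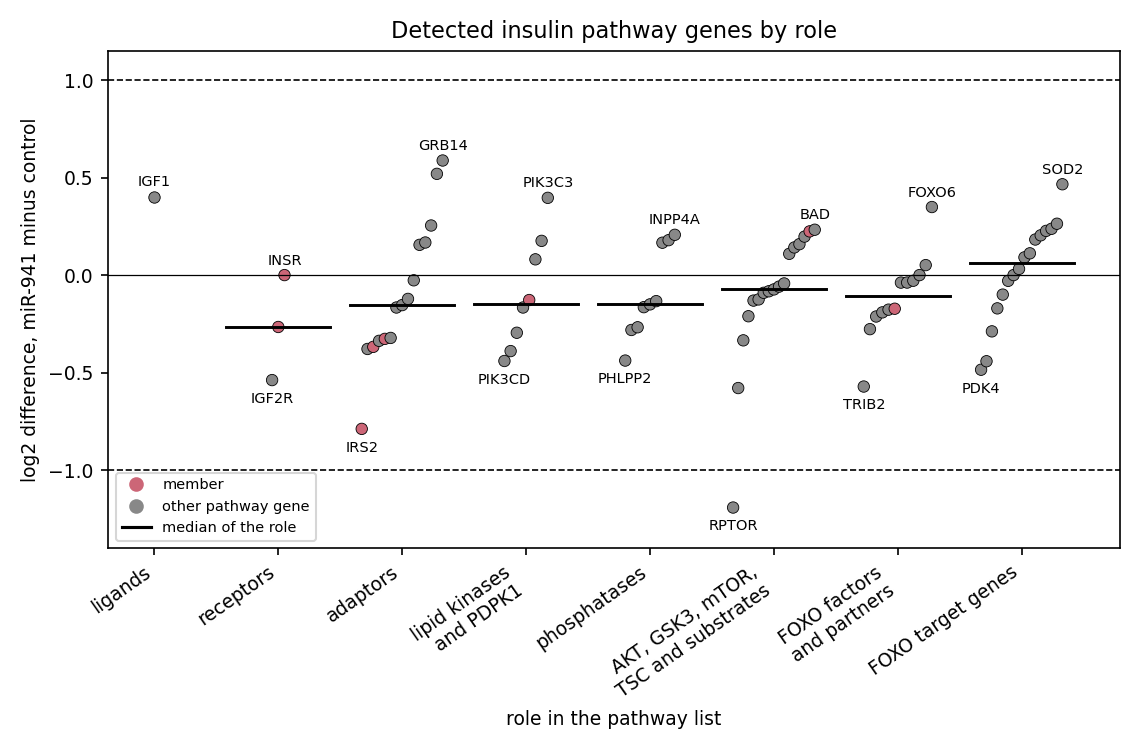
Log2 difference (miR-941 minus control) of the 81 detected genes of the pathway list on their brightest probe set, grouped by role, with members in red and the median of each role as a line. Dashed lines mark 2-fold. RPTOR at -1.19 is the only gene past 2-fold, beside 0.289% of all detected genes on the lower side. The median is above 0 for the FOXO target genes and below 0 for the other roles with more than 1 gene. With the mean over probe sets the median of the adaptors is 0.03.

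The cell line was checked by marker genes. Of 12 filament, neural and kidney markers of the parent line, 10 were detected, beside 13144 of the 19775 genes on the array. The log2 levels of all 12, detected or not, summed to 55.5 on both arrays. The undetected ones were KRT8 (0.99 and 0.80) and the kidney gene LHX1 (0.97 and 0.76). The kidney gene PAX2 was close to the detection level (0.86 and 1.23). Of 24 markers of other tissues on the array, among them liver, fat, muscle and islet, where insulin action is best known, 4 were detected. The levels of all 24, detected or not, summed to 14.8 on the control and 16.4 on the miR-941 array. The detected ones were the fibroblast collagen gene COL1A1 (2.72 and 2.48), the fat gene PLIN1 (1.39 on both arrays) and the endothelial genes VWF (0.66 and 1.39) and PECAM1 (0.93 and 1.37). VWF passed the detection level through the miR-941 array only, and PECAM1 was close to it on the control array. No direction is given for these 2 genes. Muscle ACTA1 read 1.07 on the control and 0.20 on the miR-941 array and was not detected. The liver and islet markers were all below 0.92 on both arrays, as were the 3 blood markers on the array. The part of the detected markers of other tissues in the results was not tested.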

How the data were processed

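RNA of Ago2 or nonimmune precipitates from 293T cells was measured on 2 arrays, 1 per group, grouped by the transfected oligonucleotide. The deposited values, taken as log2, were produced by the authors with the R package RMA, per the labels. The submitters' processing notes also name affy and MAS5, without versions or roles. RMA usually normalises arrays to a common distribution and summarises probes robustly, which can give equal values on both arrays. The log base and centring are not given in the sources used here. The highest values, 13.6 (control) and 13.7 (miR-941), exceed 11.1, the largest natural logarithm of a scanner reading, and array medians were 0.92 and 0.98. Genome build was not given in the sources used here.

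Of 54675 probe sets, 41091 had 1 symbol in the platform annotation, and 41037 of these were matched to RefSeq by Entrez identifier for current symbols. A gene was represented by its brightest detected probe set. Levels, differences, medians and counts were computed with Python 3.11.15, pandas 2.3.3 and statsmodels 0.14.6, and the steps were tested on simulated data. Without replicates no test was run, and the number of arrays limits the precision. The members and lists were chosen with earlier results of these data known. Named pathway genes are the highest and lowest detected gene of each role, the members' paralogues and genes past 2-fold. Of the pathway list 7 genes, PIK3CA among them, were not analysed here. Alternatives were array median centring, a loess trend (span 0.3), low values set to the detection level, means or medians over probe sets, leaving out _x_at and _s_at probe sets, other level filters and a 1.5-fold threshold.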

Additional observations from a re-analysis of the deposited data

How the results depend on the processing

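No paired analysis was possible because there is only 1 array in each group, which also means that none can be left out. The median over the members ranged from -0.28 to -0.07 and stayed below 0 under the 6 alternatives run for it. The lower count of pathway genes past 2-fold, 1, was 0 above the 75th percentile of level, a level RPTOR does not reach. At the 1.5-fold threshold it was 2, with 1 higher, and 1 member was past it. IRS2 stayed between -0.85 and -0.67 under 5 alternatives, and IGF1R, FOXO1 and AKT1 kept their direction under every alternative that gave a value. Setting low values to the detection level could not change a member's value, since the brightest member probe sets all read above it. The mean and median over probe sets could not change AKT1, which has 1 probe set. For IRS2 and FOXO1, with 2 detected probe sets each, mean and median are the same number. IRS1 was 0.03 and IRS4 -0.01 as the mean or median over probe sets. INSR was 0.01 with the loess trend removed and -0.06 with array medians subtracted. Without _x_at and _s_at probe sets IRS2, AKT1 and FOXO1 have no value, so the IRS order could not be computed, while INSR was -0.28 and PIK3R1 0.00. The IRS order was the same under the 3 alternatives run for it: with the mean over all probe sets IRS4 exceeded IRS2 by 3.08 and IRS2 exceeded IRS1 by 2.33, against 4.82 and 3.34 on the brightest probe sets, and on the miR-941 array alone, where another IRS1 probe set is the brightest, IRS2 exceeded IRS1 by 2.86.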
